A study of Mus musculus with 2 samples.

Results

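The enzymes described here are the 9 genes of serine synthesis and of the folate pathway that handles single carbon units, Phgdh, Psat1, Psph, Shmt1, Mthfd1, Tyms, Shmt2, Mthfd2 and Mthfd1l. They were chosen by name, as the genes to which the RefSeq accessions of the non-control array probes map. The array held 14 probes for these 9 genes, of 20618 named genes in all. All 14 probes were well above background on both arrays, whereas 51.0% of the named genes had a probe that was. No member reached a 2-fold difference between SoNar-high and SoNar-low cells. Tyms, the gene of thymidylate synthase, came closest, at 1.81-fold higher in SoNar-high cells on a single probe.

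The cells were B-ALL cells (mouse B-cell acute lymphoblastic leukaemia), sorted from the bone marrow of C57BL animals of 8 weeks into SoNar-high and SoNar-low populations. SoNar is a fluorescent sensor of the cytosolic NADH to NAD+ ratio, and cells were sorted on the ratio of its fluorescence at 2 wavelengths. The SoNar-high group was 1 array of total RNA and the SoNar-low group was 1 array, both labelled with Cy3. The titles call the samples N-myc-high and N-myc-low, a grouping that the labels do not explain, and the labels name neither the event that drove the leukaemia nor the number of animals pooled. With 1 array per group no test was possible, the number of arrays limits the precision, and every value below describes these 2 arrays only. Each array was also scanned on a day of its own, and that batch cannot be told apart from the group.

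Serine is made from the glycolytic intermediate 3-phosphoglycerate in a short cytosolic route, and its side-chain carbon is passed to tetrahydrofolate by serine hydroxymethyltransferase. Folate enzymes form a loop through the cell. Mitochondrial enzymes oxidise the unit to formate, and cytosolic enzymes take up formate to build purines, thymidylate and methionine. Phgdh makes NADH in the cytosol and the mitochondrial dehydrogenases make NADH or NADPH, so the route touches the same cofactor pair that SoNar reports. Dividing lymphoid cells depend on it for DNA precursors, and the antifolate methotrexate is a mainstay of leukaemia treatment.

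The SoNar-high array detected more: 72.9% of its 43020 non-control spots passed the background test, against 44.8% for SoNar-low, and 0 spots were saturated. Its lowest detected signal was 19.69, against 46.36 for SoNar-low, so detection on SoNar-high only does not by itself show a higher level. Of 12 B-lineage markers 10 were measured on both arrays, Cd79a and Cd79b among them, and Igll1 and Rag1 were not well above background on either. Markers of other cell types had higher scaled values in SoNar-high cells. The 9 measured of 10 neutrophil markers had log2 differences from -0.15 to 1.29. Summed scaled signals, here and below, take every probe of the listed genes, detected or not. For neutrophil markers the sum was 50.5 in SoNar-high cells and 40.6 in SoNar-low cells. Erythroid markers, with 2 of 8 measured, summed to 2.81 in SoNar-high cells and 0.95 in SoNar-low cells. T cell markers, with 2 of 6 measured and Cd3d not detected, summed to 2.51 in SoNar-high cells and 0.90 in SoNar-low cells. The part of these cells in any value below was not tested. In bulk RNA, fewer cells of a type and less RNA per cell cannot be told apart.

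Promoter windows were available for all 9 members, and those of 3 members are printed here. Tyms had the highest difference of the members, and Shmt1 and Shmt2 are the cytosolic and mitochondrial forms of the same enzyme. Each window runs 5′ to 3′ on the strand of the gene, from 250 bases before the start site to 50 after it, and comes from RefSeq on GRCm38.p6. Capitals mark CACGTG, the E-box to which MYC and MAX bind, and CCAAT or its complement ATTGG, the letters of the CCAAT box.
Tyms, chr5:30073576-30073875, minus strand: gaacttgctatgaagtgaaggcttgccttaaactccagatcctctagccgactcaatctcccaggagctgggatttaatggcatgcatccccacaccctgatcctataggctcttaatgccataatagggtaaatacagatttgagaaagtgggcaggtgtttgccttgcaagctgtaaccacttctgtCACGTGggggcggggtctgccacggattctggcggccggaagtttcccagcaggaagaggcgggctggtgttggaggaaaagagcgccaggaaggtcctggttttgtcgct
Shmt1, chr11:60811216-60811515, minus strand: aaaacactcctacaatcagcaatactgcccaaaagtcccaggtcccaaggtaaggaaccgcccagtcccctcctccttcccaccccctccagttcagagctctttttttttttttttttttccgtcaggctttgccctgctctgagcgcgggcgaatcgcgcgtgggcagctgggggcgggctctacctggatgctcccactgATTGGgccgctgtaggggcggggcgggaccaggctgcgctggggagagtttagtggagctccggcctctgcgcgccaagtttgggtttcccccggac
Shmt2, chr10:127522395-127522694, minus strand: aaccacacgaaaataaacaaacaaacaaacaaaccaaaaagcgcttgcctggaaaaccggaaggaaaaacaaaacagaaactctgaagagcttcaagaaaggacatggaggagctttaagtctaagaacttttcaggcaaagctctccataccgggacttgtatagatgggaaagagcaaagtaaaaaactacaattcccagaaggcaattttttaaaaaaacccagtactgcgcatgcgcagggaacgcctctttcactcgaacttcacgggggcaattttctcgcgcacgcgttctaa
The Tyms window holds an E-box at position -61 from the start site, and none of the other windows of the members, 10 in all, holds one. CACGTG stood in 7.15% of 32851 promoter windows. CCAAT or ATTGG stood in the windows of Phgdh, Psph, Shmt1, Mthfd1 and Mthfd2 and in 1 of the 2 windows of Psat1, and in 37.4% of all windows. The letters TGATGNAA, a C/EBP and ATF response element through which ATF4 acts, were in none of the 10 windows on either strand, against 3.97% of all windows. The E2F words TTTCCCGC, TTTCGCGC, TTTGCCGC and TTTGGCGC were likewise in none of them, against 2.26% of all windows. These matches describe letters within the windows and nothing about binding.

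Serine synthesis genes differed little between the populations. Phgdh, which oxidises 3-phosphoglycerate in the committed step, was measured by a pair of probes. Its first probe, A_55_P2046262, had a processed signal of 18966.2 in SoNar-high cells and 17079.9 in SoNar-low cells. Its second, A_55_P2143041, had 11756.5 in SoNar-high cells and 9776.2 in SoNar-low cells. The processed signal is the background-subtracted, detrended brightness of a spot on a linear scale. After each array was divided by its 75th percentile signal, 525.0 in SoNar-high cells and 474.8 in SoNar-low cells, Phgdh had a difference of 0.06 on the log2 scale, taken here and below as SoNar-high minus SoNar-low. This is a ratio of 1.04, and the probes gave 0.01 and 0.12 on the log2 scale.

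Psat1, the aminotransferase of the second step, was lower in value in SoNar-high cells in both probes. Probe A_55_P2052290 had a signal of 5822.5 in SoNar-high cells and 6476.7 in SoNar-low cells, and the dimmer A_66_P121495 had 425.3 in SoNar-high cells and 490.8 in SoNar-low cells. The scaled log2 difference of Psat1 was -0.33, from probe values of -0.30 and -0.35, and it stayed below 0 under all 12 alternative settings. It was close to the median of -0.31 over 1429 genes within 0.5 log2 units of the mean level of Psat1. Psph, the phosphatase that releases free serine, had a log2 difference of -0.25, but its probes did not give the same value. Probe A_55_P2069350 had a signal of 4818.5 in SoNar-high cells and 5992.0 in SoNar-low cells, a log2 difference of -0.46. Probe A_66_P139876 had a signal of 819.4 in SoNar-high cells and 757.3 in SoNar-low cells, a log2 difference of -0.03. The gap of 0.43 between the Psph probes was as large as the median gap of 0.43 over the 2021 genes with exactly 2 measured probes.

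**Figure D1:**
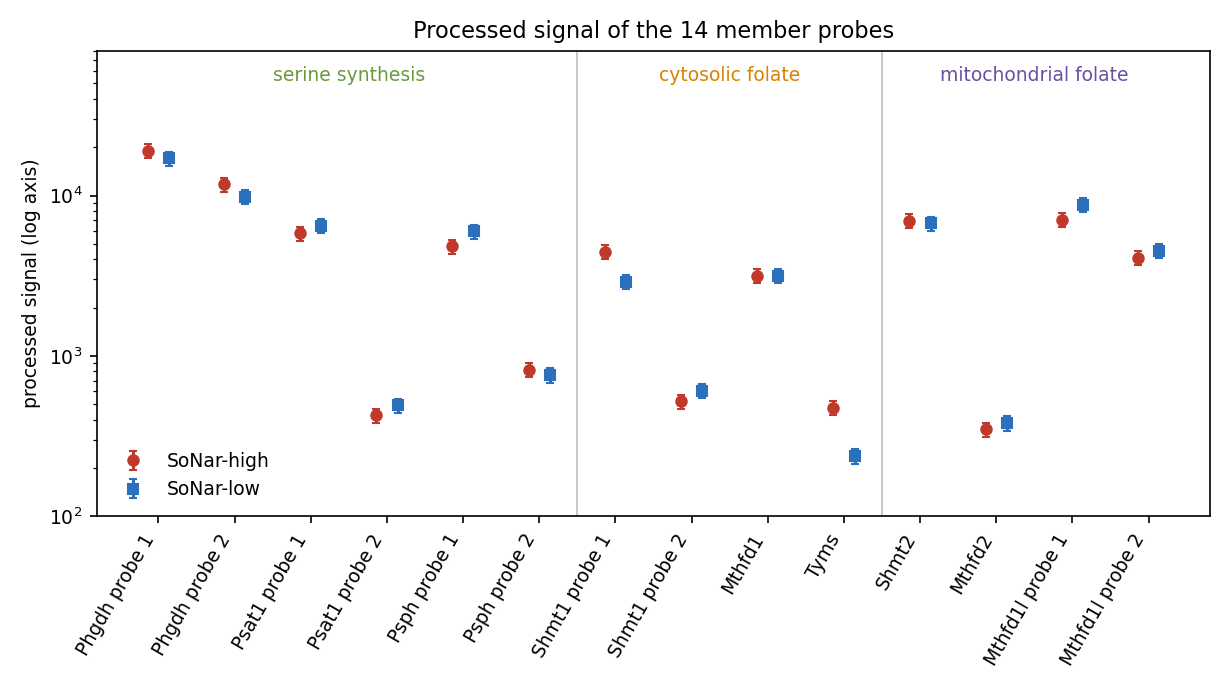
Processed signal (log axis) of each of the 14 member probes in SoNar-high cells (red circles) and the SoNar-low array (blue squares), with the error estimate of the scanner software as bars, which covers 1 spot on 1 array and no replicate. Tyms, at 472.8 in SoNar-high cells and 235.7 in SoNar-low cells, and the first Shmt1 probe are the only ones whose bars lie clearly apart with SoNar-high above.

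Among the cytosolic folate enzymes Tyms stood highest. Tyms methylates dUMP to dTMP with a folate cofactor, the de novo route to thymidylate, and leaves dihydrofolate behind. Its probe A_66_P130634 had a signal of 472.8 in SoNar-high cells and 235.7 in SoNar-low cells. The software's error estimates were 47.5 for SoNar-high and 25.4 for SoNar-low, and the signals were 24.0 times and 5.08 times the lowest detected signal of their arrays. The scaled log2 difference was 0.86. Of 10517 genes measured on both arrays, 6.64% had a difference at least as high. Among 1608 genes within 0.5 log2 units of its mean level, whose median difference was -0.08, the share was 8.58%. Tyms therefore lay in the upper part of the distribution without being rare there, and no second probe was present to set beside the first.

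Shmt1, the cytosolic serine hydroxymethyltransferase, gave opposite values in its probes. The brighter probe, A_52_P673499, had a signal of 4473.0 in SoNar-high cells and 2891.4 in SoNar-low cells, a log2 difference of 0.48. The dimmer probe, A_55_P2186584, had 520.3 in SoNar-high cells and 606.1 in SoNar-low cells, a log2 difference of -0.37. Both are annotated to the same transcript accession, and both lay at 13.1 times the lowest detected signal or more. The mean of 0.06 hides a gap of 0.85 between them, a gap that 20.9% of genes with 2 measured probes matched or exceeded. No direction can be given for Shmt1 from these probes. Mthfd1, the trifunctional cytosolic enzyme that charges tetrahydrofolate with formate, had a signal of 3150.9 in SoNar-high cells and 3161.1 in SoNar-low cells, a scaled log2 difference of -0.15.

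The mitochondrial folate enzymes all had values slightly below 0 in this scaling, as did 63.2% of all genes. Mthfd2 and Mthfd1l stayed below 0 under all 12 alternatives, while Shmt2 was above 0 in 4 of 12. Taken relative to the median of all genes, Mthfd2 was above 0 in 0 of 12, Mthfd1l in 2 and Shmt2 in 10. Shmt2, the mitochondrial serine hydroxymethyltransferase, had a signal of 6953.2 in SoNar-high cells and 6706.2 in SoNar-low cells, a scaled log2 difference of -0.09. Mthfd2, a dehydrogenase and cyclohydrolase that is high in embryonic and tumour cells, had a signal of 348.3 in SoNar-high cells and 380.1 in SoNar-low cells, a log2 difference of -0.27. Mthfd1l releases formate for export to the cytosol and was measured by probes to separate transcript accessions. Probe A_52_P167278 had a signal of 7085.5 in SoNar-high cells and 8727.3 in SoNar-low cells, a log2 difference of -0.45. Probe A_55_P2000280 had 4077.7 in SoNar-high cells and 4502.6 in SoNar-low cells, a log2 difference of -0.29. Mthfd1l was thus lower in value in SoNar-high cells in both probes, and its mean of -0.37 was the lowest of the members. That mean was close to the median of -0.34 over 732 genes within 0.5 log2 units of its mean level. Of those genes, 47.3% had a difference as low or lower.

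The compartments were then set against each other. The 3 cytosolic folate enzymes had a mean log2 difference of 0.26 and the 3 mitochondrial ones a mean of -0.24, which leaves 0.50 between them. Tyms made most of that gap, which was 0.20 without it. For the forms of the same enzyme, the log2 difference of Shmt1 exceeded that of Shmt2 by 0.15, but by 0.58 with the brighter Shmt1 probe and by -0.27 with the dimmer one. Mthfd1 exceeded its mitochondrial relatives Mthfd1l by 0.22 and Mthfd2 by 0.12. For scale, the log2 difference had a median SD of 0.15 between repeat spots, over 193 probes spotted repeatedly and detected on both arrays. The median gap between probes of a gene, 0.43, exceeded the gaps of 0.15, 0.22 and 0.12 between these gene means and the 0.20 between compartments without Tyms. The measures are unlike, because the 0.43 is between single probes and means over probes or genes vary less.

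The median difference of the 9 members lay close to that of all genes. Of the 9, 0 were higher in SoNar-high cells by 2-fold or more and 0 were lower by as much. Over 10517 genes 4.87% were that much higher and 1.68% that much lower. Their median log2 difference was -0.15, against -0.17 for all genes, and 5 of 9 lay above the median of all genes. Among the 6343 genes whose mean level lay in the range of the members, the median difference was -0.27, and 2.7% were 2-fold higher and 1.29% 2-fold lower. In that range 3.69% of genes had a log2 difference at least as high as that of Tyms. Each member was also set against the median of genes within 0.5 log2 units of its own mean level. Relative to that median, Tyms lay at 0.94, Phgdh at 0.475, Shmt1 at 0.34, Shmt2 at 0.25, Mthfd1 at 0.21 and Psph at 0.08. Psat1 lay at -0.02, Mthfd1l at -0.03 and Mthfd2 at -0.17.

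**Figure D2:**
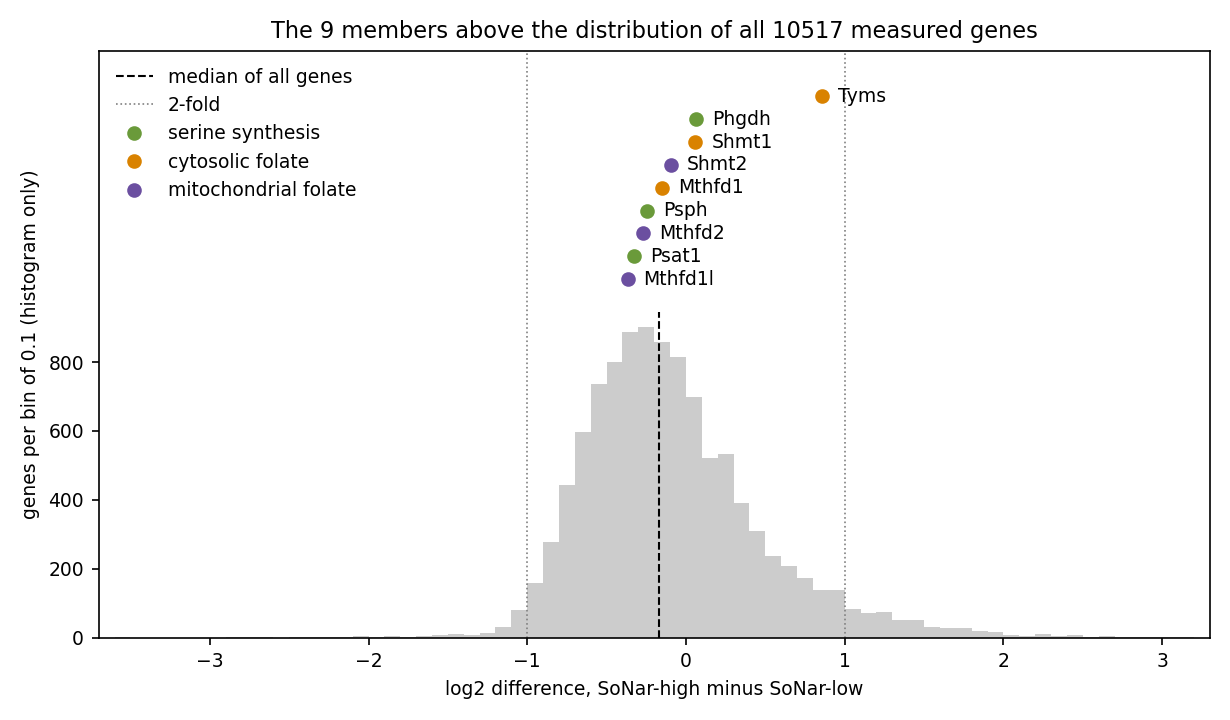
Histogram of log2 differences, as SoNar-high minus SoNar-low, of 10517 genes measured on both arrays, with the 9 members as coloured points above it in the order of their values; their height carries no value. Of the members, 8 lie between -0.37 and 0.06, around the median of all genes of -0.17 (dashed), and Tyms lies at 0.86, inside the 2-fold lines (dotted).

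Tyms stayed above the median of all genes under the alternatives, but its rank among genes changed with the filter, and other members moved. Of all genes, 16.8% were at least as high as Tyms with no filter on dim probes and 24.5% with probes detected on at least 1 array. In the other alternatives that share was 4.96% to 6.91%. Over 12 alternative settings, Tyms lay 0.72 to 1.08 log2 units above the median of all genes and was the highest member in each. Psat1 and Mthfd2 lay below that median in all 12, by no more than 0.47. Phgdh and Shmt1 lay above it in 11 of 12. The exception was the setting that kept probes detected on at least 1 array, which raised the median itself. Except in the brightest-probe setting, the value of Shmt1 averaged its opposed probes, so these settings give it no direction. With 75th percentile scaling its probes lay at 0.65 and -0.20 relative to the median of all genes. Psph, Mthfd1, Shmt2 and Mthfd1l changed side of the median among the settings, and the number of members above it ran from 1 to 7 of 9. Tyms passed 2-fold in 1 setting, the 75th percentile taken over jointly detected spots, with a log2 difference of 1.07, and had 0.25 with median scaling, which lowers every gene.

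**Figure D3:**
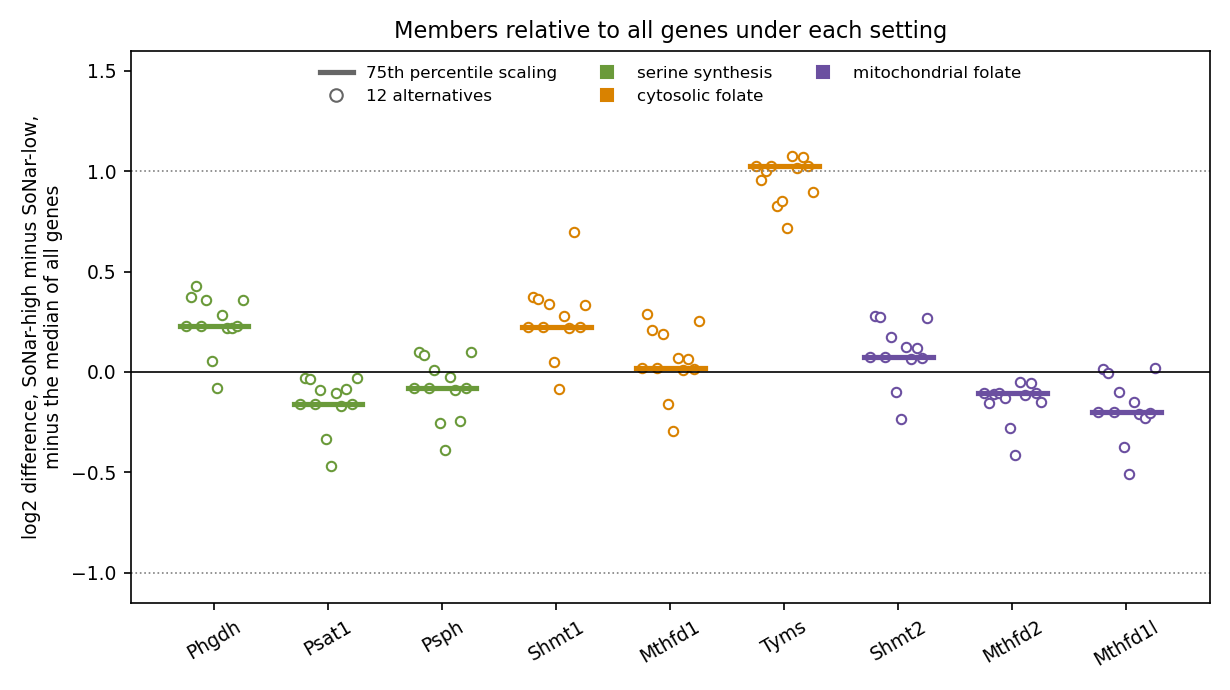
Each member's log2 difference (SoNar-high over SoNar-low) minus the median of all genes, with 75th percentile scaling (bars) and under 12 alternatives (open circles), coloured by role. Tyms stays between 0.72 and 1.08, apart from the other 8 members, while Shmt1 reaches 0.70 with the brightest probe of a gene.

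None of the 15 measured genes of thymidylate and deoxynucleotide supply had a log2 difference as high as that of Tyms. Of the 15, 11 had a difference below 0, as did 63.2% of all genes, and 0 were 2-fold higher or lower. Their median was -0.40, against -0.17 over all genes. Brighter genes had a lower median, -0.34 over 645 genes within 0.5 log2 units of the mean level of Shmt2. Dctd, deoxycytidylate deaminase, was the highest of the 15 at 0.18. The ribonucleotide reductase subunit genes Rrm1 and Rrm2 had 0.13 and -0.59, and the thymidine kinase gene Tk1 had -0.41. Rrm2b, a further subunit gene of the same enzyme that p53 induces, was well above background on SoNar-high only. Its probes had signals of 118.3 and 20.9 in SoNar-high cells and of 18.8 and 9.4 in SoNar-low cells, and it is not among the 15. Of its SoNar-high signals, 118.3 lay above and 20.9 below the lowest detected signal of SoNar-low, 46.36. Of 112 genes with a probe in the linked lists, 9 were detected on SoNar-high only and 0 on SoNar-low only, against 26.5% and 0.05% of all named genes.

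Of the cell cycle markers, 10 of 14 had log2 differences below 0, against 63.2% of all genes, and the median was -0.33, against -0.17. Brighter genes had lower medians than all genes. The median was -0.34 over 645 genes within 0.5 log2 units of the mean level of Shmt2, and -0.41 over 357 genes near Phgdh. The summed scaled signal of the cell cycle markers was 321.7 in SoNar-high cells and 388.9 in SoNar-low cells. Cdk1, the mitotic kinase, and Cdc6, which loads the replicative helicase, were the 2 of 14 at least 2-fold higher, against 4.87% of all genes. Cdk1 had 1.87, the mean of measured probes at 2.58 and 1.165. Cdc6 had 1.41 from 1 probe, and its dimmer probe was not well above background on SoNar-low. Whether Tyms and these genes share a source of signal was not tested.

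Of 19 other folate enzymes and carriers 15 were measured, 0 were 2-fold higher or lower, and the median log2 difference was -0.33, against -0.17 over all genes. Slc25a32, the carrier that brings folate into mitochondria, was the lowest at -0.94, with a signal of 545.3 in SoNar-high cells and 948.0 in SoNar-low cells. Slc46a1, the proton-coupled folate transporter of the cell surface, was the highest at 0.52. Mthfd2l, a mitochondrial relative of Mthfd2, had a difference of -0.75. Aldh1l2, which oxidises formyl-tetrahydrofolate in mitochondria, was not well above background on either array.

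Of 19 measured genes in the list of serine or glycine use, 1 was at least 2-fold higher, against 4.87% of all genes. Sdsl, a relative of serine dehydratase, had a signal of 735.1 in SoNar-high cells and 258.4 in SoNar-low cells, a log2 difference of 1.36 from 1 probe. The list had 19 of 24 genes measured and a median of -0.05, or -0.14 without Psd, an exchange factor gene that does not belong there. Dld, the shared dehydrogenase subunit of the glycine cleavage system, was the lowest at -0.60. The methionine cycle and transsulfuration genes, 9 of 12 measured, ran from -0.55 for Mat2b to 0.61 for Cbs, with a median of -0.13 and 0 past 2-fold. Purine synthesis, which takes up formyl units in the cytosol, was measured in all 13 genes, with 0 past 2-fold and a median of -0.28. It ran from -0.79 for Prps1, which makes the ribose phosphate donor, to 0.30 for Ppat, the first committed enzyme.

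ATF4 is the transcription factor that raises Phgdh, Psat1, Shmt2 and Mthfd2 under amino acid shortage. Its gene had a log2 difference of -0.30 as the mean of discordant probes. The brighter had a signal of 12371.3 in SoNar-high cells and 21530.2 in SoNar-low cells, and the dimmer had 635.0 in SoNar-high cells and 450.4 in SoNar-low cells. The list of ATF4 and its targets also held Eif2ak4 and Eif2ak3, kinase genes that act upstream of ATF4, at -0.67 and -0.60. Of the 22 genes in this list 18 were measured, with a median of -0.30. Of these, 1 was past 2-fold upwards and 0 downwards, against 4.87% and 1.68% of all genes. Sesn2, a stress-induced inhibitor of mTORC1 signalling, was the one past 2-fold at 1.63, with a signal of 1147.3 in SoNar-high cells and 336.4 in SoNar-low cells. Nars, an aminoacyl-tRNA synthetase gene, was the lowest at -0.79. The list of MYC and redox genes had 6 of 8 measured, 0 past 2-fold and a median of -0.23, from -0.995 for Max, the dimerisation partner of MYC, to -0.11 for G6pdx, the entry enzyme of the pentose phosphate pathway. Mycn, the gene of N-myc, passed the background test on neither array, and Myc passed it on SoNar-high only. Mycn had a signal of 4.7 in SoNar-high cells and 12.3 in SoNar-low cells, and Myc had 25.1 in SoNar-high cells and 9.4 in SoNar-low cells. The Myc signal of 25.1 lay below the lowest detected signal of SoNar-low, 46.36, so no direction can be given for Myc.

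**Figure D4:**
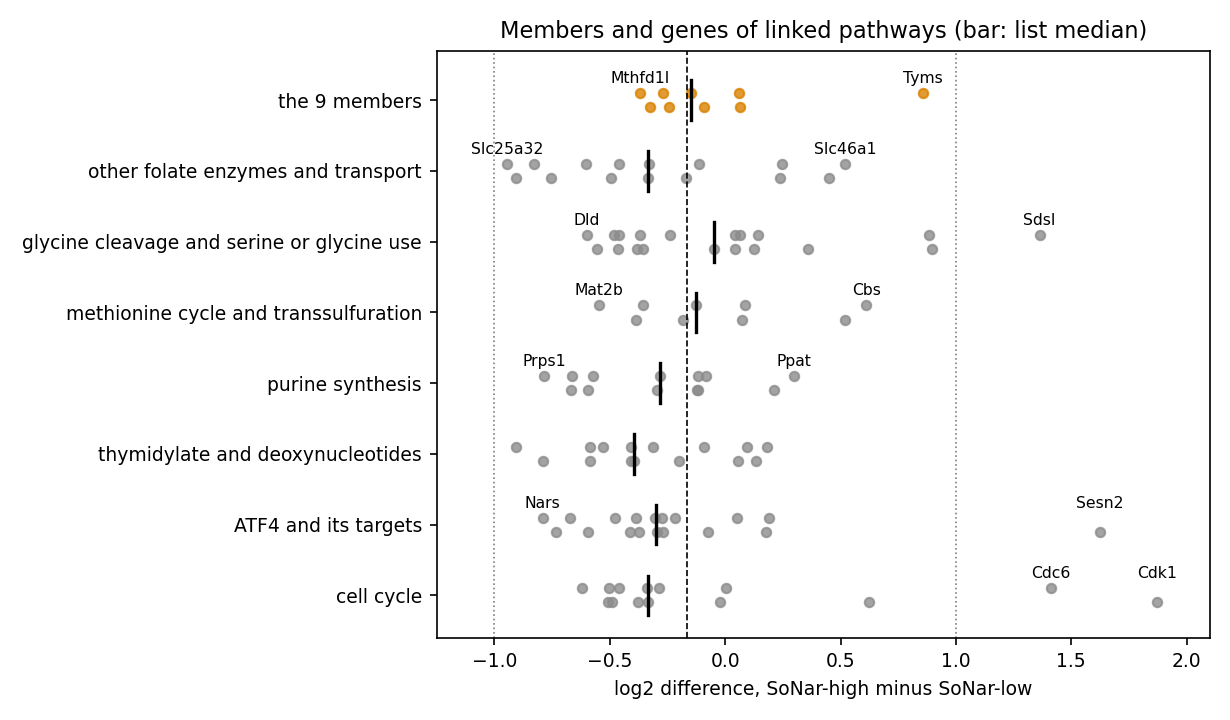
Log2 differences (SoNar-high over SoNar-low) of the 9 members (orange, top row) and of the measured genes of linked pathways (grey), with list medians as bars, the median of all genes dashed and 2-fold dotted. Of the genes drawn, only Sdsl, Sesn2, Cdc6 and Cdk1 lie beyond the 2-fold line, all on the SoNar-high side, and Tyms is the highest of the members at 0.86.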

How the data were processed

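Gene expression was measured in total RNA of sorted B-ALL cells with an Agilent 1-colour mouse array, 1 for each group, and source names gave the groups. The deposited scanner files give each spot's intensity after subtraction of background and detrending, from Agilent Feature Extraction 11.0.1.1 per the file headers; the submitters' processing notes give 9.1. The authors' deposited value table holds log2 values with equal medians of 5.86 over the probes used on both arrays and served only as an alternative; its normalization is not given in the sources used here. The array annotation is of mm9, so gene coordinates are left out, and promoter windows are of GRCm38.p6.

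The processed signal was divided by the 75th percentile of the array's non-control spots and put on a log2 scale. The 685 spots flagged as outliers were dropped, repeat spots averaged, and a probe called detected when most of them passed the background test. RefSeq accessions, versions ignored, named 27115 of 39085 probes. A gene is the mean of its probes detected on both arrays, and 2-fold means an absolute log2 difference of 1 or more. With single arrays neither p-values nor standard errors were computed.

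All members are named, and of each linked list every gene past 2-fold, its highest and lowest gene, and Mthfd2l, Aldh1l2, Slc25a32 and Atf4, apart from some that are not reported here. Rrm1, Rrm2, Rrm2b, Tk1, Myc and Mycn were added after their values were seen. The members and lists were chosen with earlier results of these data known. With 2 arrays no likeness of pattern was computed. Aggregation was tested on simulated data. The 12 alternatives were 4 scalings, normexp with an offset of 50 on median spot signals (no mean signal is in the files), 4 filters on dim probes, the brightest probe, outlier spots kept and the authors' table. Python 3.11.15, numpy 2.4.6, pandas 2.3.3, matplotlib 3.10.9, R 4.3.3 and limma 3.58.1 were used.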

Additional observations from a re-analysis of the deposited data

How the results depend on the processing

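No paired analysis was possible because a group is a single array, which also means that none could be dropped. The count of members at least 2-fold higher, 0, became 1 (Tyms) with the 75th percentile of jointly detected spots, and that of members at least 2-fold lower was 0 in all 12 alternatives. The members' median log2 difference of -0.15 was -0.76 with median scaling, 0.081 with cyclic loess, 0.069 after quantile normalization, 0.063 with the percentile of jointly detected spots and 0.035 in the authors' table. Taken relative to the median of all genes, 0.02, it was 0.21 with cyclic loess, 0.28 after quantile normalization, 0.17 with normexp, 0.25 in the authors' table, -0.16 with no filter and -0.29 with probes detected on at least 1 array. The last 2 settings add dim genes by construction; for the others the cause was not tested. The cytosolic minus mitochondrial gap of 0.50 ran from 0.45 to 0.67 over the 12, the highest with the brightest probe. Of 3 changes made after seeing the data, it was 0.20 without Tyms, 0.64 with the brighter Shmt1 probe alone and 0.36 with the dimmer.

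Over all genes, the count at least 2-fold higher, 512, was 139 with median scaling, 806 with the percentile of jointly detected spots, 262 with normexp, 337 with the stricter filter, 2775 unfiltered and 3203 with probes detected on either array. The count at least 2-fold lower, 177, was 3306 with median scaling, 300 with cyclic loess, 350 after quantile normalization, 67 with the percentile of jointly detected spots, 60 with normexp, 1751 with no filter, 114 with 1 common limit and 430 in the authors' table. Median scaling moved the median of all genes by -0.61, and the share of 2-fold genes on the higher side from 74.3% to 4.03%.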
